A study of Mus musculus with 4 samples.

Results

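The genes described are the metallothioneins Mt1 and Mt2 and the zinc importer Slc39a14, 3 of the 31765 genes listed for the plaque libraries and of the 26391 and 27696 genes listed for the control and Trf2T188A ligation libraries. They were chosen by their levels in these same cells, since Mt1 and Mt2 were among the leading genes of plaque cell clusters and Slc39a14 was a marker of a cluster. Their levels are therefore given as a description, and no test stands behind them. All 3 were detected in all 4 libraries.

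Single-cell RNA sequencing was carried out with the 10x Chromium 3' method on vascular smooth muscle cells (VSMCs) from 2 experiments, with 1 library for each genotype. In the plaque experiment, atherosclerotic plaques were dissected from the aortic root, the arch and the carotid arteries after 14 weeks on a high fat diet. The mice were C57Bl/6 and either ApoE-/-, a genotype that forms plaques on this diet, or Trf2T188A/ApoE-/-. Both genotypes carried Confetti, a fluorescent reporter that tamoxifen, given at 6 weeks of age, switches on in cells expressing Myh11 through Myh11-CreERt2. This Cre is expressed only in males. In the ligation experiment, the left carotid artery of C57Bl/6 males aged 4 to 5 months had been tied off for 28 days, and cells of Trf2T188A mice were set against those of wild-type littermates, called control. Trf2T188A is a mutant form of the telomere-binding protein TRF2, and in both experiments a minimal Sm22a promoter drove it in VSMCs. The question was how the mutant changes VSMCs in disease and after injury. The number of mice in each library is not given in the sources used here, and with 1 library per genotype no difference below can be separated from a difference between those mice or libraries.

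Metallothioneins are small cysteine-rich proteins that bind zinc, copper and cadmium and buffer the free metal in the cell. Zinc above the resting level activates the transcription factor MTF1, which binds metal response elements in the promoters of Mt1 and Mt2, and glucocorticoids, oxidative stress and inflammatory cytokines also raise both genes. Slc39a14 (ZIP14) is a plasma membrane carrier that brings zinc, iron and manganese into cells and is induced in the liver during the acute phase response.

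In GRCm38, Mt2 lies on the forward strand of chromosome 8 at chr8:94172664-94173568 and Mt1 follows it on the same strand at chr8:94179082-94180327, with 5513 bases between them. Slc39a14 lies on the reverse strand at chr14:70303469-70351425. All coordinates of the genes are from GENCODE vM21. The bases just upstream of the RefSeq starts of Mt1 and Mt2 (GRCm38.p6, forward strand) are shown because both genes varied together from cell to cell. Capitals mark the core of the metal response element, TGCACNC or TGCGCNC, searched on both strands, so that a reverse-strand core reads as its complement. The Mt1 bases run from position -100 to -8 before the start, chr8:94178989-94179081, and end where the GENCODE transcript begins. The Mt2 bases run from position -150 to -1, chr8:94172468-94172617.
Mt1: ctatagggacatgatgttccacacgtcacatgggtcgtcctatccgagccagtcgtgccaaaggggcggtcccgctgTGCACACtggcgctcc
Mt2: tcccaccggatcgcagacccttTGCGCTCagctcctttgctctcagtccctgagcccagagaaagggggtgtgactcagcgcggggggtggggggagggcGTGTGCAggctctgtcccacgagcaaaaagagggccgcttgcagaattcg
Over the whole window of 250 bases before to 50 bases after the start, Mt1 held 3 such cores, at -23, 3 and 21, and Mt2 held 4, at -223, -128, -50 and 5, the last 2 of them on the reverse strand. Of 32851 mouse promoter windows of this length, 25.7% held at least 1 core, 1.97% at least 3 and 0.517% at least 4. The Mt2 window also held an antioxidant element core, TGANNNNGC, at -79, as did 41.3% of all windows with at least 1 match on either strand. It overlaps none of the metal response element cores. These are matches of letters and say nothing of binding in these cells. GENCODE lists shorter transcripts of both genes that start further downstream, past the ends of these windows. Those of Mt1 start at chr8:94179211 and chr8:94179241, and its window ends at chr8:94179138. The bases past the windows were not searched, so the cores counted need not be all those near a start. A window for Slc39a14 was not analysed here.

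The deposited levels are UMIs (unique molecular identifiers, each standing for 1 captured RNA molecule) per 10000 UMIs in a cell, without a logarithm. In plaques, Mt1 averaged 15.7 UMIs per 10000 in 1502 ApoE-/- cells and 16.8 in 929 Trf2T188A/ApoE-/- cells. Mt2 averaged 4.09 and 4.996 in the same libraries, and Slc39a14 0.636 and 0.726. The 3 genes thus spanned a wide range of abundance, and Mt1 was found in 96.2% and 94.1% of the cells, Mt2 in 76.0% and 76.1%, and Slc39a14 in 62.6% and 63.2%. Mt3, the other metallothionein listed, had a UMI in 0.466% and 0.431% of plaque cells.

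The means of the metallothioneins were set by a minority of cells. The median plaque cell held 6.00 (ApoE-/-) and 5.94 (Trf2T188A/ApoE-/-) Mt1 UMIs per 10000, well below the means, whereas the highest cells reached 329 and 332. The highest 10% of cells held 57.0% and 59.4% of the summed Mt1 level, and 66.3% and 66.2% of that of Mt2. Slc39a14 was spread more evenly, with 40.8% and 43.4% in the highest 10% of cells. The cumulative plots show that the curves of the 2 plaque genotypes nearly coincide up to the median and part mostly among the higher cells.

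**Figure D1:**
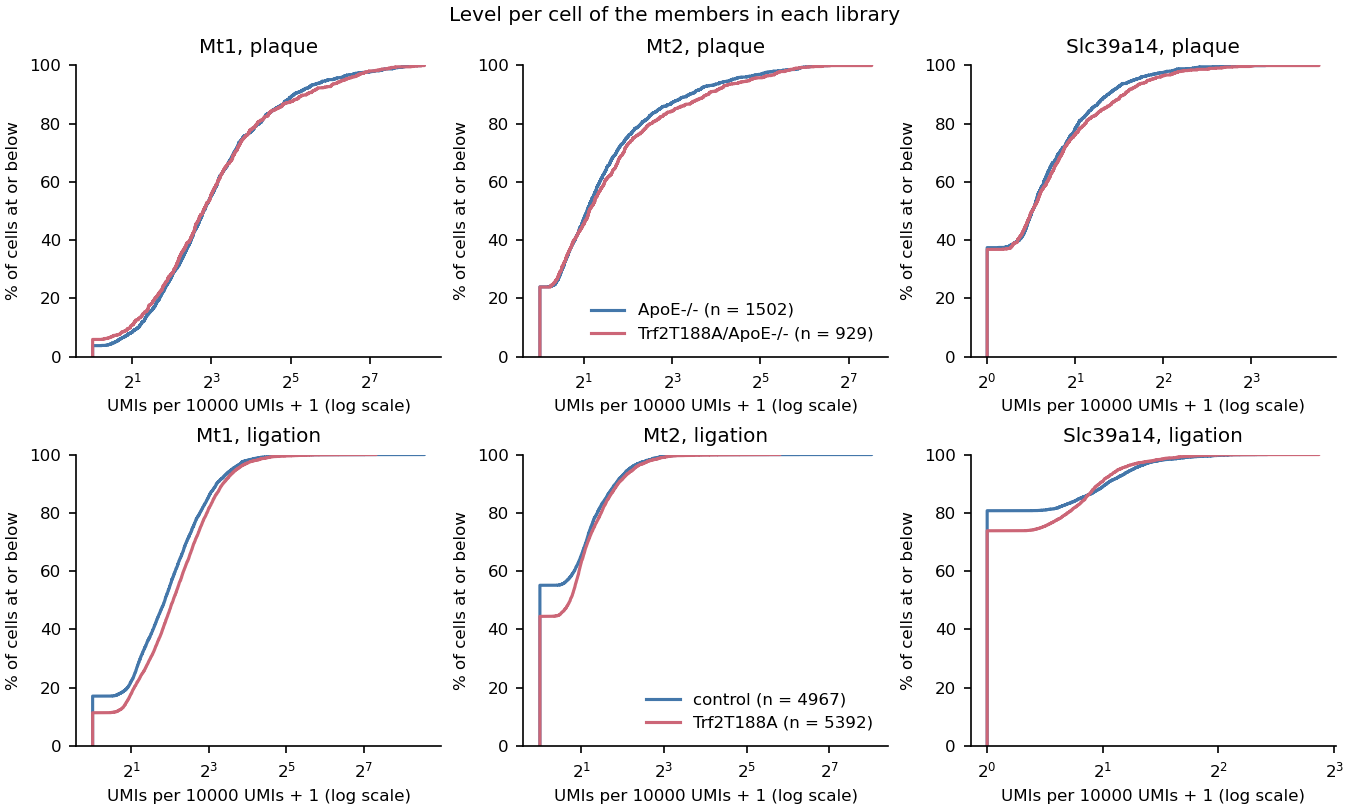
Share of cells (%, vertical axis) at or below a given level (UMIs per 10000 UMIs plus 1, log scale, horizontal axis) for Mt1, Mt2 and Slc39a14 in the plaque (top) and ligation (bottom) libraries, 1 line per library. The 2 plaque lines nearly coincide at the medians of 6.00 and 5.94 for Mt1, and the Trf2T188A ligation line lies to the right of the control line for Mt1, with medians of 3.22 and 2.64.

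Genotypes were compared by the log2 ratio of the mean levels plus 1, Trf2T188A over its control, with a 95% interval from the UMI counts. The interval reflects the counting of UMIs alone and not how mice differ from each other, and a gene is called here when the ratio passes 0.25 in either direction, a description of size and not a test. Over all plaque cells the ratio was 0.09 (0.07 to 0.11) for Mt1, 0.24 (0.20 to 0.27) for Mt2 and 0.08 (0.03 to 0.12) for Slc39a14, so that none of the 3 passed, against 0.817% of the 10526 genes detected in at least 10% of cells of either library. Without the pseudocount the levels were 1.07 times (Mt1), 1.22 times (Mt2) and 1.14 times (Slc39a14) those of the ApoE-/- library. Mt2 alone crossed 0.25 under other settings, at 0.26 to 0.29 under 5 of them. Median depth was 22766 UMIs per cell in the ApoE-/- and 24377 in the Trf2T188A/ApoE-/- library, and the median mitochondrial share was 2.43% and 1.78%. Terf2, the gene of TRF2, averaged 0.189 and 0.180 UMIs per 10000 in these libraries. The 3' counts do not separate the mutant transcript from the mouse's own. No cell barcode was shared by the plaque libraries and 10 were shared by the ligation libraries.

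The plaque cells were clustered without Mt1, Mt2 and the zinc transporter genes among the variable genes, which gave 13 clusters, and clusters were named from marker lists where these were met. The main groups were contractile-like cells (906 cells), cells led by Itih4, Wnt16 and Fgl2 (386 cells), fibromyocyte-like cells, led by Timp1, Spp1 and Thbs1 (278 cells), cells led by the complement and acute phase genes C3, Cp and Lcn2 (197 cells), and chondrocyte-like cells, led by Col2a1, Ibsp and Cytl1 (144 cells). The contractile-like cells were 2 clusters with the same marker list joined, 484 cells led by Acta2, Myl9 and Tpm2 and 422 cells led by Sparcl1, Atf3 and Tppp3. Since clusters formed on these cells hold every gene of them, levels between states are a description.

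Mt1 was highest in the complement and acute phase cells and next in the Itih4/Wnt16/Fgl2 cells. The complement and acute phase cells averaged 51.1 Mt1 UMIs per 10000 in the ApoE-/- and 40.8 in the Trf2T188A/ApoE-/- library, and the Itih4/Wnt16/Fgl2 cells 33.9 and 38.1. Contractile-like cells averaged 9.37 and 7.55, so that both libraries of both high states lay above both libraries of the contractile-like cells. Over both libraries the level was 5.28 times that of contractile-like cells in the complement and acute phase cells and 4.06 times in the Itih4/Wnt16/Fgl2 cells, log2 ratios of 2.28 (2.25 to 2.30) and 1.91 (1.88 to 1.93). Mt1 stood first and Mt2 not far behind among the leading genes of the Itih4/Wnt16/Fgl2 cells. Neither gene had been used to form the clusters, but both had been chosen for such ranks, so the rank is no independent evidence.

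The remaining plaque states were lower and closer to each other. Fibromyocyte-like cells averaged 11.2 Mt1 UMIs per 10000 over both libraries, chondrocyte-like cells 7.36, and the cells led by Pln, Sncg and Notch3 (74 cells) had the lowest level, 3.79 (3.43 to 4.22). The intervals of chondrocyte-like cells, a cluster led by Ifrd1, Nav2 and Slit3 (6.90, 184 cells) and an unnamed cluster of 136 cells (6.57) overlapped in that order. Counting intervals are narrow beside the spread between cells: the middle 50% of the Itih4/Wnt16/Fgl2 cells ran from 5.43 to 39.4 Mt1 UMIs per 10000, and that of contractile-like cells from 3.14 to 10.0. The cells of the high states thus overlapped with contractile-like cells, and their medians, 26.0 and 12.4 against 5.79, differed by less than their means.

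Mt2 followed the same order at the top with wider ratios. It averaged 15.4 UMIs per 10000 in complement and acute phase cells and 10.1 in Itih4/Wnt16/Fgl2 cells against 1.71 in contractile-like cells, 9.05 times and 5.89 times as much. The log2 ratios of 2.60 (2.56 to 2.65) and 2.03 (1.99 to 2.07) compare with 5.06% of genes past 0.25 in either direction in the Itih4/Wnt16/Fgl2 cells and 16.4% in the complement and acute phase cells. In fibromyocyte-like cells, where 17.7% of genes passed, Mt1 had a log2 ratio of 0.32 and Mt2 of 0.85 over contractile-like cells.

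**Figure D2:**
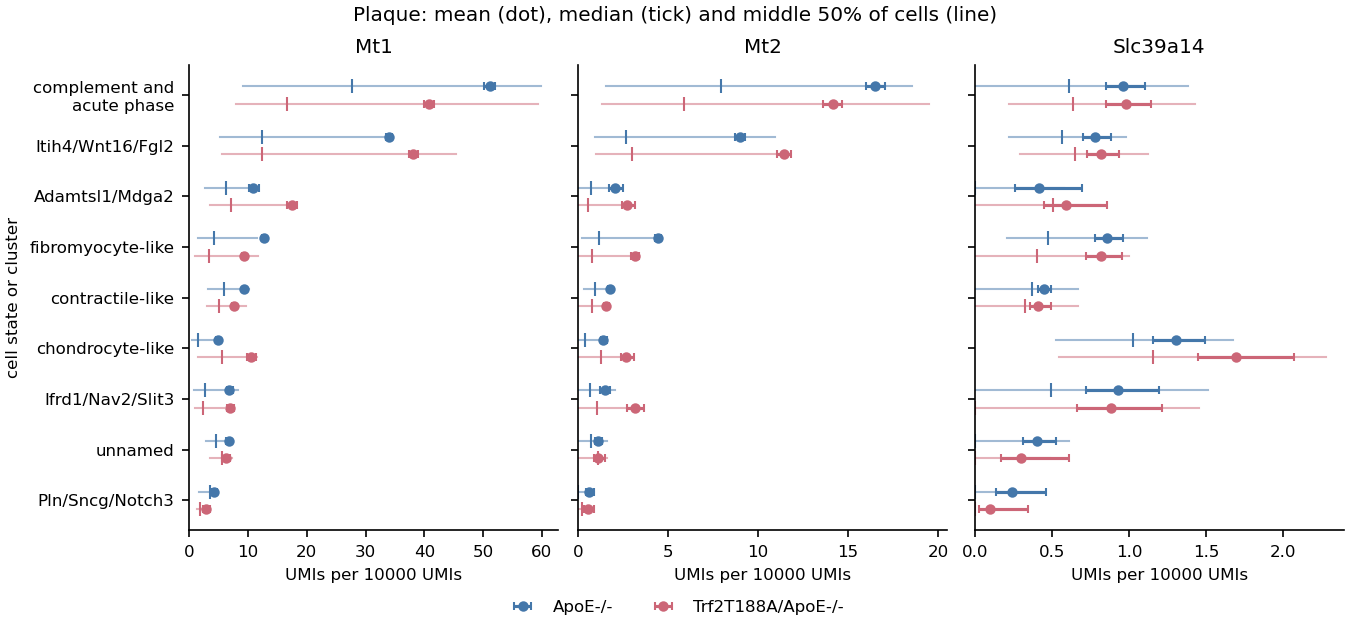
Levels of Mt1, Mt2 and Slc39a14 (UMIs per 10000 UMIs, horizontal axes) in 9 plaque cell states or clusters (vertical axis) for the ApoE-/- (blue) and Trf2T188A/ApoE-/- (red) libraries; dots are means with 95% counting intervals, ticks are medians and thin lines hold the middle 50% of cells. Mt1 and Mt2 are highest in complement and acute phase cells (51.1 and 40.8 for Mt1) and in Itih4/Wnt16/Fgl2 cells, whereas Slc39a14 is highest in chondrocyte-like cells (1.31 and 1.70).

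The cells with the most metallothionein came from these 2 states. Of the 122 plaque cells in the highest 5% for Mt1 (above 71.4 UMIs per 10000), 60 were Itih4/Wnt16/Fgl2 cells and 42 complement and acute phase cells, 49.2% and 34.4% of the high cells from states that made up 15.9% and 8.10% of all cells. Only 6 were contractile-like, a state with 37.3% of the cells. For Mt2 (above 21.5 UMIs per 10000) the numbers were 53, 48 and 7 of 122. The same cells were largely high in both genes, 97 of the 122 of each. Being in a high state did not make a cell high, since 15.5% of Itih4/Wnt16/Fgl2 cells and 21.3% of complement and acute phase cells were among the highest for Mt1.

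Markers of macrophages and endothelium were sparse but higher in the complement and acute phase cells than over all plaque cells. In the 2 libraries, the summed level of 8 macrophage markers was 0.864 and 1.42 UMIs per 10000 in the complement and acute phase cells and 0.520 and 1.01 in the Itih4/Wnt16/Fgl2 cells, against 0.290 and 0.553 over all plaque cells and 0.106 and 0.361 in contractile-like cells. The sum of 8 endothelial markers was 1.26 and 1.58 in the complement and acute phase cells, against 0.560 and 0.635 over all plaque cells, although Cdh5, Cldn5 and Kdr were at 0 there in both libraries. The sum of 8 adventitial fibroblast markers was 12.8 and 14.6 there, against 10.5 and 9.86 over all cells, with Dpp4 at 0. The part of these markers in the metallothionein levels was not tested. Contractile markers summed to 306 and 317 in the Itih4/Wnt16/Fgl2 cells and to 75.4 and 81.4 in the complement and acute phase cells. Of these states, 90.9% and 79.2% of the cells held a UMI of a Confetti reporter, against 92.1% of contractile-like cells and 36.4% of 22 adventitial fibroblast-like cells. The last also held much Mt1, 20.1 UMIs per 10000.

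Mt1 and Mt2 varied together from cell to cell. Over 2431 plaque cells the Spearman correlation between their levels was 0.74, with 0.73 in the ApoE-/- and 0.74 in the Trf2T188A/ApoE-/- library, and 0.67 after every cell had been thinned to 8000 UMIs, which left 2217 cells. The values within states, which are free of differences between states, were 0.89 in complement and acute phase cells, 0.89 in Itih4/Wnt16/Fgl2 cells, 0.81 in fibromyocyte-like, 0.77 in chondrocyte-like and 0.61 in contractile-like cells. The relation was thus closest where both genes were abundant, which is also where counting noise was smallest. These points share libraries and depth, and correlation is given without a p-value.

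**Figure D3:**
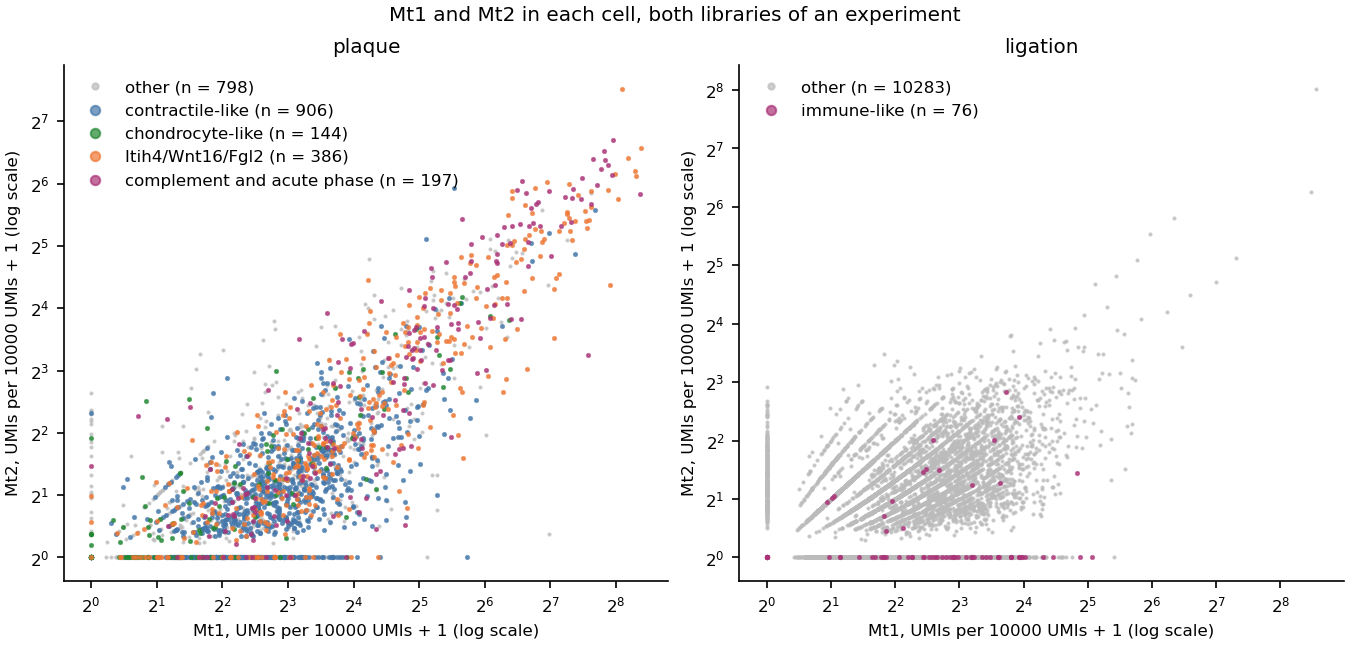
Mt2 (vertical axis) against Mt1 (horizontal axis) in each cell, both as UMIs per 10000 UMIs plus 1 on log scales, in plaque (left) and ligation (right) cells of both libraries, with states in colour. Plaque cells form a band along which complement and acute phase and Itih4/Wnt16/Fgl2 cells reach the top, and most ligation immune-like cells lie on the line without Mt2.

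The balance between the 2 genes differed by state. Mt2 UMIs made up 22.1% (21.9% to 22.3%) of the Mt1 and Mt2 UMIs of plaque cells, but 16.6% (16.1% to 17.2%) in contractile-like, 22.1% in Itih4/Wnt16/Fgl2, 24.9% in complement and acute phase and 26.0% (25.4% to 26.7%) in fibromyocyte-like cells. In both genotypes contractile-like cells had the lowest share of these 4 states, with 16.1% and 18.02%, against 26.4% and 25.3% in fibromyocyte-like cells. The lowest shares were in Pln/Sncg/Notch3 cells (14.1%) and in the unnamed cluster of 136 cells (14.4%). In the Ifrd1/Nav2/Slit3 cluster the genotypes stood apart, with 15.0% (13.2% to 16.8%) in ApoE-/- and 27.3% (25.05% to 29.7%) in Trf2T188A/ApoE-/- cells. That cluster had low depth, with medians of 10400 and 8025 UMIs per cell.

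Slc39a14 had another distribution over the plaque states. It was highest in chondrocyte-like cells, at 1.31 (ApoE-/-) and 1.70 (Trf2T188A/ApoE-/-) UMIs per 10000, and was found in 91.4% and 88.9% of them. Contractile-like cells averaged 0.446 and 0.410. The chondrocyte-like level was 3.39 times that of contractile-like cells over both libraries, a log2 ratio of 0.79, in a comparison in which 25.1% of genes passed 0.25. Next came the complement and acute phase cells (0.969), the Ifrd1/Nav2/Slit3 cluster (0.905), fibromyocyte-like cells (0.840) and Itih4/Wnt16/Fgl2 cells (0.796), each with an interval that overlapped the next. Of the 122 cells highest for Slc39a14, 26 were chondrocyte-like. Pln/Sncg/Notch3 cells were lowest for all 3 genes, at 0.2002 for Slc39a14.

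Importer and metallothioneins therefore peaked in different states. The Spearman correlation over plaque cells was 0.15 between Mt1 and Slc39a14 and 0.22 between Mt2 and Slc39a14, and 0.10 and 0.12 after thinning. Both were weak, and in contractile-like cells Mt1 and Slc39a14 had a correlation of 0.03. In chondrocyte-like cells, with the highest Slc39a14, Mt1 over both libraries had a log2 ratio of -0.23 to contractile-like cells, and this value hid a split: -0.81 in the ApoE-/- and 0.43 in the Trf2T188A/ApoE-/- library.

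Among the other genes of zinc handling, few passed 0.25 in the metallothionein-rich states. Of the 8 zinc importers of the SLC39 family detected in at least 10% of Itih4/Wnt16/Fgl2 or contractile-like cells, 1 passed 0.25 upwards in the first over the second, which was Slc39a14 at 0.32, with a median over the 8 of 0.04 beside -0.00 over all genes, of which 5.06% passed in either direction. In complement and acute phase cells 2 of 10 passed, near the 16.4% of all genes, with Slc39a14 highest at 0.46. None of 6 zinc exporters of the SLC30 family passed in either. Mtf1, the metal sensor, had log2 ratios of 0.02 and -0.04. The means of these genes were near the pseudocount of 1 or below it, which holds their ratios near 0. In complement and acute phase over contractile-like cells, 7 of the 10 importers and 5 of the 6 exporters lay above 0. From contractile-like to complement and acute phase cells, Slc39a11 went from 0.048 to 0.110 UMIs per 10000 and Slc39a3 from 0.147 to 0.091. Slc30a1, an exporter that MTF1 also drives, averaged 0.101 and 0.079 UMIs per 10000 in the 2 plaque libraries. Over both libraries it averaged 0.089 in contractile-like, 0.082 in Itih4/Wnt16/Fgl2 and 0.103 in complement and acute phase cells.

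Iron handling and acute phase genes were also higher in the metallothionein-rich states, but not only there. Fth1, the ferritin heavy chain, averaged 116 UMIs per 10000 in contractile-like, 173 in Itih4/Wnt16/Fgl2 and 164 in complement and acute phase cells. Ftl1, the light chain, averaged 3.35, 6.53 and 10.7. Of 8 iron-handling genes, 3 passed 0.25 upwards in Itih4/Wnt16/Fgl2 over contractile-like cells and 4 in complement and acute phase cells, against 5.06% and 16.4% of all genes in either direction. Their median correlation was 0.13 with Mt1 and 0.16 with Mt2, against 0.03 over all genes with each. None of 5 copper-handling genes passed in either state, and their median correlation was 0.12 with Mt1 and 0.06 with Mt2. Of 10 acute phase and STAT3 genes tested, 8 passed 0.25 upwards in Itih4/Wnt16/Fgl2 over contractile-like cells, with Serpina3n, a secreted protease inhibitor, highest at 2.32 and Socs3, a feedback inhibitor, lowest at 0.00, and 10 of 11 passed in complement and acute phase cells, beside the same 5.06% and 16.4% of all genes. Of 15 digestion-induced genes, 3 passed upwards and 1 downwards in the first state and 10 upwards and 1 downwards in the second. Most members of the acute phase list, namely C3, Lcn2, Cp, Saa3, Cebpd and Serpina3n, were also markers used to name the complement and acute phase state. That they passed there is therefore no independent evidence. Of the same list, 7 of 10 passed upwards in fibromyocyte-like and 9 of 11 in chondrocyte-like cells over contractile-like cells. Iron-handling genes passed upwards in 2 of 8 cases in each, and Fth1 passed downwards in chondrocyte-like cells. Of all genes, 17.7% and 25.1% passed in either direction, and Mt1 had ratios of 0.32 and -0.23 there. The median correlation of the acute phase list within libraries was 0.21 with Mt1, 0.27 with Mt2 and 0.19 with Slc39a14, and all 10 were above 0 with each, against a median of 0.03 over all genes with each. The 6 glucocorticoid targets, such as Tsc22d3 and Fkbp5, had median correlations of 0.03 with Mt1, 0.03 with Mt2 and 0.07 with Slc39a14. Fkbp5 was the highest of them with Mt2, at 0.12. In complement and acute phase over contractile-like cells 2 of the 6 passed 0.25 upwards, with Fkbp5 highest at 0.32. Of the 6, 5 lay above 0 there, and Zbtb16 was lowest at -0.22. Fkbp5 averaged 0.055 UMIs per 10000 in contractile-like and 0.319 in complement and acute phase cells, and Tsc22d3 0.067 and 0.275. Such means are far below the pseudocount of 1, which holds these ratios near 0. The 5 targets of NRF2, the oxidative stress factor, had median correlations of 0.09 with Mt1 and 0.07 with Mt2, all above 0. Over contractile-like cells none of 5 passed in Itih4/Wnt16/Fgl2 cells. In complement and acute phase cells 2 of 6 passed upwards, beside 16.4% of all genes in either direction, with Gclc highest at 0.38 and Gclm lowest at -0.14.

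The genes most like each member were taken by the mean correlation of both libraries over 10236 genes. For Mt1 in plaques these were Mt2 (0.74), Fth1 (0.48), Ifitm3, an interferon-induced membrane protein (0.41), Ctsb, a lysosomal protease (0.41), Mgst1, a glutathione transferase (0.40), Tm4sf1 (0.39), Gas6 (0.39) and Ifitm2 (0.39). For Mt2 they were Mt1, Fth1 (0.37), Ifitm3 (0.36), the adhesion molecule Vcam1 (0.35), Lrg1 (0.35), the extracellular chaperone Clu (0.34), Mgst1 (0.34) and Gas6 (0.33). After Mt1 and Mt2 themselves the values dropped sharply. Slc39a14 shared none of these: its list held Hif1a, the oxygen-regulated transcription factor (0.28), Sdc4 (0.27), Runx1 (0.26), Col5a2 (0.26), Lcn2, which binds iron carriers of bacteria (0.26), Gch1 (0.25), Chst11 (0.25) and Anxa8 (0.24). After thinning 6, 5 and 3 of the 8 stayed among the first 8 for Mt1, Mt2 and Slc39a14. Cells share libraries and depth, and the correlation of Slc39a14 with the depth of the cell was itself 0.21 in the ApoE-/- and 0.23 in the Trf2T188A/ApoE-/- library.

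Within plaque states, the genotypes differed in both directions. Of 9 states with at least 20 cells in each library, Mt1 passed 0.25 upwards in 2 and downwards in 4, Mt2 upwards in 4 and downwards in 1, and Slc39a14 in none. The means of Slc39a14 were of the size of the pseudocount or below it, which holds its ratios near 0, and with a pseudocount of 0.1 it passed in 4 states, at 0.35 in chondrocyte-like cells, 0.43 in Adamtsl1/Mdga2/Bmpr1b cells, -0.34 in the unnamed cluster of 136 cells and -0.78 in Pln/Sncg/Notch3 cells. The largest ratio was in chondrocyte-like cells, where Mt1 averaged 4.90 UMIs per 10000 in 81 ApoE-/- cells and 10.5 in 63 Trf2T188A/ApoE-/- cells, with medians of 1.497 and 5.55. This was 2.15 times as much, a log2 ratio of 0.97 (0.86 to 1.07), and Mt2 went with it at 0.61 (1.41 and 2.69). Of all genes, 4.99% passed 0.25 in these cells. The ratio of Mt1 was nearly as large, 0.94, without the highest cell of each library. Slc39a14 stood at 1.31 and 1.70, a ratio of 0.23, which was 0.38 without the pseudocount.

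Beside this difference, the summed level of 15 genes known to be induced by tissue digestion was 194 UMIs per 10000 in ApoE-/- and 224 in Trf2T188A/ApoE-/- chondrocyte-like cells, and its correlation with Mt1 in these cells was 0.24 and 0.23. The sum of the adventitial fibroblast markers was 12.0 and 22.7, and the median mitochondrial share 1.51% and 0.604%. Their part in the result was not tested.

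The states with most metallothionein did not move together. In Itih4/Wnt16/Fgl2 cells Mt2 averaged 9.0005 and 11.4 UMIs per 10000, a log2 ratio of 0.31 where 1.32% of genes passed, and Mt1 had a ratio of 0.16. That of Mt2 no longer passed without the highest cell of each library (0.23), from summed UMIs (0.23) or as a difference of mean log2 values (0.14). In complement and acute phase cells, where 2.64% of genes passed, the ratio was the other way, at -0.32 for Mt1 (51.1 and 40.8) and -0.21 for Mt2 (16.5 and 14.1). That of Mt1 did not pass as a difference of mean log2 values (-0.19) or from summed UMIs (-0.12). In fibromyocyte-like cells (3.38% of genes past 0.25) it was -0.41 for Mt1 (12.7 and 9.36) and -0.39 for Mt2 (4.44 and 3.16), the latter -0.24 at a lower clustering resolution.

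In contractile-like cells, the largest state, Mt1 had a ratio of -0.28 (9.37 and 7.55, medians 5.93 and 5.06), where 0.363% of genes passed, and Mt2 of -0.11. It did not pass under 7 alternatives, at -0.14 to -0.25. In the Adamtsl1/Mdga2/Bmpr1b cells (42 and 39 cells, 7.24% of genes past 0.25) the ratios were 0.63 for Mt1 and 0.29 for Mt2. In the Ifrd1/Nav2/Slit3 cluster (9.28%) Mt2 averaged 1.49 and 3.14, a ratio of 0.74, whereas Mt1 hardly differed, at 6.84 and 6.94 and a ratio of 0.02. In the unnamed cluster of 136 cells (2.71%) no member passed, but Slc39a14 moved from -0.11 to -0.43 without the pseudocount. In Pln/Sncg/Notch3 cells (52 and 22 cells, 9.4%) Mt1 had a ratio of -0.42, and this turned to 0.17 when the libraries were integrated before clustering, as Mt2 did from -0.10 to 0.45.

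**Figure D4:**
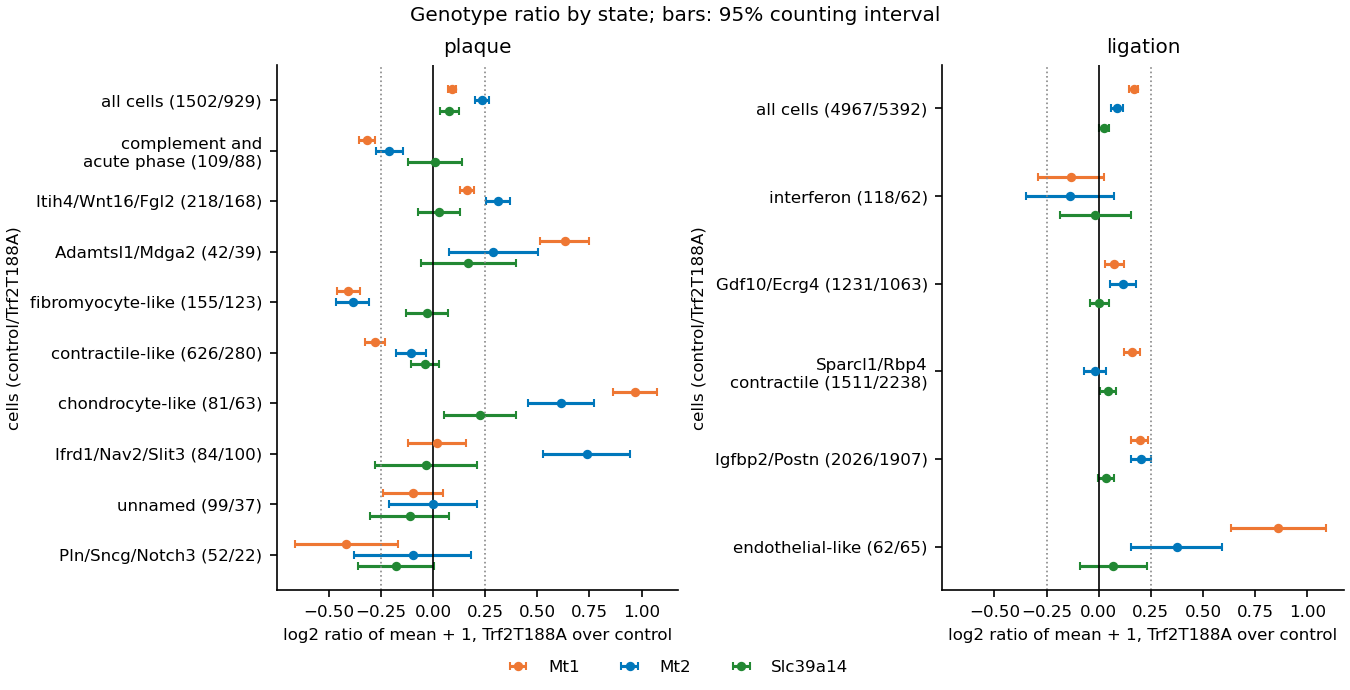
Log2 ratio of mean level plus 1 (horizontal axes), Trf2T188A over its control, for Mt1 (orange), Mt2 (blue) and Slc39a14 (green) over all cells and in each state, with the cell numbers of the control and Trf2T188A library; bars are 95% counting intervals and dotted lines mark 0.25. Plaque chondrocyte-like cells lie furthest to the right (0.97 for Mt1), contractile-like, fibromyocyte-like and complement and acute phase cells lie to the left, and Slc39a14 stays within the dotted lines throughout.

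The ratios over all plaque cells were not those of the states. The share of the high states was larger in the Trf2T188A/ApoE-/- library, with 18.1% against 14.5% Itih4/Wnt16/Fgl2 cells and 9.47% against 7.26% complement and acute phase cells, whereas contractile-like cells made up 30.1% against 41.7%. With every state given the same weight in both libraries, the log2 ratio over all cells was -0.075 for Mt1, 0.041 for Mt2 and 0.0018 for Slc39a14. The higher mean of Mt2 in the Trf2T188A/ApoE-/- library, 0.24, thus went with a larger share of cells in the states where Mt2 was high. Dissection and cell recovery also set such shares, and their part was not tested.

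In the ligated carotid arteries, metallothionein levels were given by tables normalised separately from those of plaques and are not compared with them. Mt1 averaged 3.87 UMIs per 10000 in 4967 control cells and 4.46 in 5392 Trf2T188A cells, Mt2 0.944 and 1.07, and Slc39a14 0.228 and 0.251. The log2 ratios were 0.17 (0.14 to 0.19), 0.09 (0.06 to 0.12) and 0.03 (0.00 to 0.05), none past 0.25, where 1.09% of 8247 genes passed. Median depth was 8631 UMIs in control and 11153 in Trf2T188A cells. At 5000 UMIs per cell Slc39a14 was found in 10.9% (10.0% to 11.8%) and 11.3% (10.5% to 12.2%) of cells, whereas the shares without thinning were 19.3% and 26.2%. The wider gap before thinning went with depth.

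Among the 6 ligation clusters, cells led by Gdf10, Lum and Dcn (2294 cells) averaged 5.08 Mt1 UMIs per 10000, contractile cells with Sparcl1 and Rbp4 (3749 cells) 4.69, and remodelling cells led by Igfbp2, Eln and Postn (3933 cells) 3.09. The Igfbp2/Postn cells were the lowest of the 3 main VSMC states for Mt1 and Mt2, with log2 ratios of -0.48 and -0.20 to the Sparcl1/Rbp4 contractile cells. They were the highest for Slc39a14, at 0.295 against 0.216 UMIs per 10000, 1.36 times as much. The interferon cells (180 cells) averaged 6.14 for Mt1 with a median of 2.53, and a control cell among them held 355 UMIs per 10000. The Spearman correlation between Mt1 and Mt2 over 10359 ligation cells was 0.37, and 0.27 after thinning; both genes had correlations between -0.02 and 0.02 with Slc39a14 in each library.

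**Figure D5:**
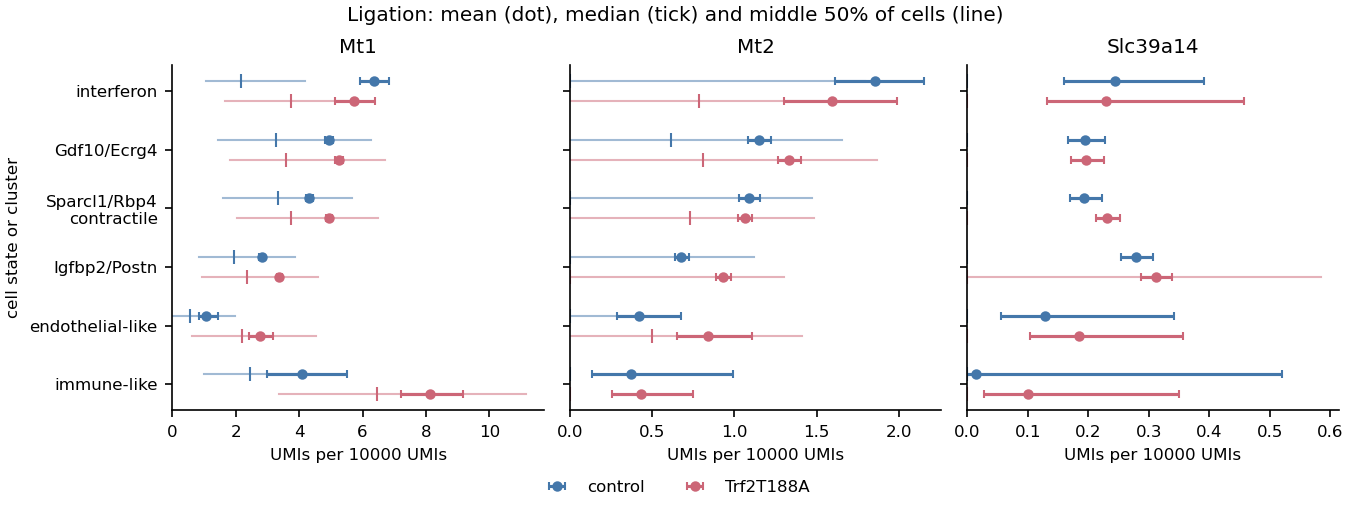
Levels of Mt1, Mt2 and Slc39a14 (UMIs per 10000 UMIs, horizontal axes) in 6 ligation clusters (vertical axis) for the control (blue) and Trf2T188A (red) libraries; dots are means with 95% counting intervals, ticks are medians and thin lines hold the middle 50% of cells. The main VSMC states lie between 2.81 and 5.25 for Mt1, and immune-like cells reach 8.13 in the Trf2T188A library with little Mt2.

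Within the 3 main VSMC states of the ligation experiment no member passed 0.25 with the pseudocount of 1. In Igfbp2/Postn cells the ratio was 0.20 for Mt1 (2.81 and 3.37) and 0.20 for Mt2 (0.678 and 0.931), where 2.23% of genes passed. Without the pseudocount these were 0.26 and 0.46, both past 0.25. In Sparcl1/Rbp4 contractile cells (0.963%) it was 0.16 for Mt1, -0.02 for Mt2 and 0.04 for Slc39a14, the last 0.26 without the pseudocount, and in Gdf10/Ecrg4 cells (1.5%) 0.07 for Mt1 and 0.12 for Mt2. A single control cell of the contractile state held 376 Mt1 and 259 Mt2 UMIs per 10000, and the ratio of Mt2 there was 0.09 without the highest cell of each library. In interferon cells, where 6.28% of genes passed, the ratio of Mt1 was -0.13 and turned to 0.35 without the highest cell of each library. No direction is read from that state.

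Cells that are not VSMCs also held the genes. In endothelial-like cells, led by Ctla2a and Pecam1, Mt1 averaged 1.07 in 62 control and 2.77 in 65 Trf2T188A cells, a ratio of 0.86 where 7.89% of genes passed, and Mt2 0.422 and 0.841, a ratio of 0.37. Slc39a14 stood at 0.128 and 0.184, from 10 and 19 UMIs, a ratio of 0.07 and of 0.52 without the pseudocount. The Mt1 levels were 27.5% and 62.2% of the VSMC level in the same library. The VSMC gene Myh11 stood at 3.79% and 7.36% of its VSMC level in these cells and Acta2 at 8.03% and 13.1%, so that VSMC RNA also differed between the libraries, and its part in the result was not tested.

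Immune-like cells, led by Cd74, Cxcl2 and H2-Eb1, numbered 19 in the control and 57 in the Trf2T188A library and held Mt1 almost without Mt2. Mt1 averaged 4.09 and 8.13 UMIs per 10000, 105% and 183% of the VSMC level, and Mt2 0.374 and 0.433, 39.2% and 40.2% of it. Myh11 stood at 11.4% and 11.6% of its VSMC level in the same cells. Mt2 made up 6.89% (4.73% to 9.64%) of their metallothionein UMIs, against 18.2% to 24.9% in the other 5 clusters. The share was low in both libraries, at 9.84% and 6.43%. Fth1 was also higher there than in VSMCs, at 186% and 243% of the VSMC level.

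The genes most like Mt1 in ligation cells were, after Mt2 (0.37) and Fth1 (0.23), the immediate early genes Junb (0.22) and Nr4a1 (0.21), Id3 (0.20), Cebpb (0.19), Gadd45b (0.19) and Nfkbia (0.18), and those most like Mt2 included Gadd45b (0.23), Nfkbia (0.23), Junb (0.19), Ier3 (0.18), Egr1 (0.17), Gadd45g (0.16) and Klf4 (0.16). Several of these are induced while tissue is digested. The summed level of the 15 digestion-induced genes had a correlation of 0.17 with Mt1 in each ligation library and of 0.18 and 0.17 with Mt2, against 0.02 and 0.04 (Mt1) and -0.00 and 0.09 (Mt2) in the plaque libraries. Within plaque states it was higher in some, at 0.25 (Mt1) and 0.25 (Mt2) in ApoE-/- complement and acute phase cells, though -0.07 and 0.04 in those of the other genotype, and at 0.33 and 0.29 in the ApoE-/- cells of the Ifrd1/Nav2/Slit3 cluster. Plaques and ligated arteries had both been digested with enzymes. The part of digestion in these levels was not tested. For Slc39a14 the highest value was 0.10 (Fn1), too weak to read.

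Cells with a UMI of Cdkn2a, the gene of the senescence marker p16, were not the cells with most metallothionein. In plaques they averaged 7.24 Mt1 UMIs per 10000 in 49 ApoE-/- and 7.93 in 56 Trf2T188A/ApoE-/- cells, against 16.0 and 17.4 in the other cells of each library. After ligation they averaged 3.501 in 280 control and 4.26 in 391 Trf2T188A cells, against 3.89 and 4.48. Slc39a14 did not follow this order, with 1.04 UMIs per 10000 against 0.622 in ApoE-/- plaques, 0.709 against 0.727 in Trf2T188A/ApoE-/- plaques, 0.258 against 0.226 in control and 0.303 against 0.247 in Trf2T188A ligation cells. Cdkn2a UMIs are sparse, and a cell without one may still express the gene. The cells were pooled over states that differ in metallothionein, and the part of state in these gaps was not tested.

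Across the transporter families no genotype ratio passed 0.25 over all cells with the pseudocount of 1, where 0.817% of all genes did in plaques and 1.09% after ligation. The means of the detected transporters were all below the pseudocount, which holds these ratios near 0. Without it, Slc39a1 was 1.41 times its control in plaques and 0.659 times after ligation, and Slc30a1 was 0.779 times in plaques. In plaques the 9 zinc importers detected ran from -0.03 (Slc39a9) to 0.21 (Slc39a1) and the 6 exporters from -0.03 (Slc30a1) to 0.01 (Slc30a6). In ligated arteries the 7 importers ran from -0.24 (Slc39a1) to 0.03 (Slc39a14) and the 5 exporters from -0.02 (Slc30a9) to 0.03 (Slc30a5), so that Slc39a1 pointed in opposite directions in the 2 experiments. Genes of other lists did pass in plaques. Of 15 digestion-induced genes, 3 passed upwards and none downwards, with a median ratio of 0.15 and Hspa1b highest at 0.37. Of 10 acute phase genes, 2 passed upwards. These were Lcn2, at 2.16 and 5.26 UMIs per 10000 and a log2 ratio of 0.99, and C3, at 2.26 and 3.63 and a ratio of 0.51. The serum amyloid gene Saa3 had a ratio of 0.62 (0.258 and 0.926). It was found in 5.93% and 9.47% of cells and so was not among the 10. Lcn2, C3 and Saa3 are expressed in the complement and acute phase cells, whose share also differed between the libraries.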

How the data were processed

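Per the labels and the methods of the study, the authors aligned reads to GRCm38 with Cell Ranger 7.0.0 (plaque) or 6.1.2 (ligation), used Seurat 4.3.0 (for ligation the labels name 3.2.1 and the methods 4.3.0), filtered cells, kept plaque clusters with Confetti reads and normalised each cell. The deposited signal is UMIs per 10000 UMIs of a cell. All values were within 0.01 of whole UMIs, so counts were recovered. No deposited column was left unused.

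Clusters were formed with Seurat 5.3.0 in R 4.3.3 (2000 variable genes; 18 principal components and resolution 0.9 in plaques, 17 and 0.2 after ligation) and named from the marker list with the highest mean log2 ratio over the other cells, if that mean and at least 3 markers reached 0.5, at least 1 was among the 10 leading genes and the cluster's depth was not low for its library. Scrublet called at most 0.323% of a library's cells doublets, too few to be relied on, and no cell was removed. Ratios used a pseudocount of 1 and states of 20 cells or more. Intervals (delta method for ratios, gamma for means, Clopper-Pearson for shares, 95%) cover counting error only. Of these, the delta method alone was tried on simulated counts, which were drawn with the counting error it assumes. Thinning kept cells of at least 8000 (plaque) or 5000 (ligation) UMIs. Genes named are the members, listed genes and the 8 most alike. Members and lists were chosen with earlier results of these data known. Python 3.11.15, numpy 2.4.6, scipy 1.17.1 and pandas 2.3.3 were used.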

Additional observations from a re-analysis of the deposited data

Results flagged for a closer look

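The genotype log2 ratios of Mt1 and Mt2 pointed in opposite directions in different plaque states, past 0.25 each way. Mt1 stood at 0.97 in chondrocyte-like cells and at -0.42 in Pln/Sncg/Notch3 cells. Mt2 stood at 0.74 in the Ifrd1/Nav2/Slit3 cluster and at -0.39 in fibromyocyte-like cells. With 1 library per genotype, none of these differences between states was tested.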

How the results depend on the processing

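No paired analysis was possible because each genotype had 1 library and the labels give no replicate numbers. In all, 405 genotype ratios kept their value within counting error under an alternative, 119 moved and 1 reversed; of 150 alternatives of ratios past 0.25, 136 kept direction and side, and of 375 of ratios under it, 309 did and 338 kept direction. For ratios over all plaque cells, Mt1 (0.09) was -0.023 as a difference of mean log2 values, 0.20 from summed UMIs, 0.15 with thinned cells, 0.13 without cells under 2000 genes and -0.075 with equal state weights. Mt2 (0.24) was 0.28 with a pseudocount of 0.1, 0.29 with none, 0.11 as a difference of mean log2 values, 0.28 from summed UMIs, 0.27 with thinned cells and 0.041 with equal state weights. Slc39a14 (0.08) was 0.17, 0.19 and 0.0018 with a pseudocount of 0.1, none and equal state weights. After ligation, Mt1 (0.17) was 0.20 with a pseudocount of 0.1, 0.21 with none and 0.22 as a difference of mean log2 values. Mt2 (0.09) was 0.16 and 0.18 with those pseudocounts, 0.12 without cells under 2000 genes and 0.12 without the highest cell of each library, the last chosen after the data had been seen. Slc39a14 (0.03) was 0.10 and 0.14 with those pseudocounts.

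Over contractile-like cells, Itih4/Wnt16/Fgl2 cells had Mt1 ratios of 1.75 in the ApoE-/- library, 2.19 in the other, 1.88 with thinned cells, 2.01 with a pseudocount of 0.1 and 2.32 with the members among the variable genes; for Mt2 these were 1.85, 2.27, 2.49 (pseudocount 0.1) and 2.43 (members used). Complement and acute phase cells had 2.33 in the ApoE-/- library, 2.39 and 2.41 for Mt1, and 2.66, 3.10 and 2.79 for Mt2, in the same order. Slc39a14 in chondrocyte-like cells had 0.67, 0.93 and, with a pseudocount of 0.1, 1.56. The Spearman correlation of Mt1 and Mt2, 0.74 over plaque cells, was 0.61 in contractile-like cells (0.49 thinned), 0.89 in Itih4/Wnt16/Fgl2 and 0.89 in complement and acute phase cells (0.86 thinned), 0.45 and 0.58 in the Ifrd1/Nav2/Slit3 cluster and the unnamed cluster of 136 cells (0.49 thinned in the latter) and 0.59 in thinned chondrocyte-like cells. After ligation it was 0.27 in both libraries thinned, 0.27 in control and 0.26 in Trf2T188A thinned cells, and 0.61 in endothelial-like cells. Reversals, sign changes of ratios past 0.25 or correlations past 0.1, were Mt1 in Pln/Sncg/Notch3 cells with reciprocal PCA integration (0.17), Mt2 of the Ifrd1/Nav2/Slit3 cluster over contractile-like cells in the ApoE-/- library (-0.15) and the correlation of Mt1 and Slc39a14 in the thinned unnamed cluster (-0.047). The cause was not tested. The depth of the ligation libraries limits Slc39a14, found in under 30% of their cells.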
